A study of Mus musculus with 8 samples.

Results

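Transmitter identity and chloride transport were described with 8 genes: the vesicular glutamate transporters Slc17a6, Slc17a7 and Slc17a8, the GABA genes Gad1, Gad2 and Slc32a1, and the chloride cotransporters Slc12a2 and Slc12a5. They were chosen by name among the 27998 genes of the matrix. Levels were compared over 3 classes of barcodes. Reln-high barcodes had at least 5 Reln UMIs per 10000 UMIs. Lhx5-positive Reln-low barcodes fell below that threshold and had at least 1 Lhx5 UMI. Other neurons were the remaining barcodes outside a small radial glia-like cluster. The classes held 470, 237 and 2207 of the 2931 barcodes kept.

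The cells were cortical Ebf2-EGFP+ cells of the strain Tg(Ebf2-EGFP)FB58Gsat, isolated by FACS from the cerebral cortex of mouse embryos at E15.5 and run on the 10x Genomics Chromium platform. EGFP in these mice is driven by Ebf2 regulatory sequence and marks preplate neurons first and Cajal-Retzius (CR) neurons, the Reelin-secreting cells of layer 1, later. There was 1 group: 8 labelled samples, from about 8 embryos of 2 timed-pregnant mice, which shared the transgene and had no untreated or wild-type counterpart. The barcodes of the 8 samples stand together in 1 matrix and carry no sample label. Every value below is therefore 1 pooled value without replicates. The 95% intervals speak of counting error alone.

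Glutamatergic neurons load glutamate into synaptic vesicles with a vesicular glutamate transporter. Slc17a7 (VGLUT1) is typical of mature cortical projection neurons, and Slc17a6 (VGLUT2) of subcortical and many developing neurons. GABAergic neurons make GABA with the glutamate decarboxylases Gad1 and Gad2 and load it with Slc32a1 (VGAT). The effect of GABA on a neuron depends on intracellular chloride, which Slc12a2 (NKCC1) brings in and Slc12a5 (KCC2) carries out.

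The vesicular transporters of glutamate that differed most between classes lie on chromosome 7 of GRCm38. Slc17a6 (ENSMUSG00000030500) spans 51622006 to 51671119 and Slc17a7 (ENSMUSG00000070570) spans 45163949 to 45176142, both on the plus strand. RefSeq promoters were used for 7 of the 8 members, as 10 entries. Whether RefSeq holds a promoter for the remaining member cannot be read from this count. The 250 bases before each RefSeq start of these 2 genes (build GRCm38.p6, plus strand) are shown because their levels ran in opposite directions over the classes. Slc17a6 has 2 starts, whose stretches lie at chr7:51621580-51621829 and chr7:51624387-51624636, and Slc17a7 has 1, whose stretch lies at chr7:45163671-45163920. In the GENCODE annotation the second Slc17a6 stretch lies in an intron of the gene and the other stretches lie upstream of their gene. Capitals mark every match to a searched motif.
Slc17a6, first start: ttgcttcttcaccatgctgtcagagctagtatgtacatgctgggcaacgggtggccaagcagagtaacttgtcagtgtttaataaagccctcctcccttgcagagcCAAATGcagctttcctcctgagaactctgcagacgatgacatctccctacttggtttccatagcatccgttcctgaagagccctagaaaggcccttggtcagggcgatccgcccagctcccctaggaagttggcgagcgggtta
Slc17a6, second start: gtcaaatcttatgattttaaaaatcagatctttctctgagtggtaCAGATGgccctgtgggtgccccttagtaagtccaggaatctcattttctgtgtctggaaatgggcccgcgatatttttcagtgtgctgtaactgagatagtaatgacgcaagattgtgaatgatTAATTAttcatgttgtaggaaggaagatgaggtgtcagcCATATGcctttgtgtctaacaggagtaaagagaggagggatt
Slc17a7: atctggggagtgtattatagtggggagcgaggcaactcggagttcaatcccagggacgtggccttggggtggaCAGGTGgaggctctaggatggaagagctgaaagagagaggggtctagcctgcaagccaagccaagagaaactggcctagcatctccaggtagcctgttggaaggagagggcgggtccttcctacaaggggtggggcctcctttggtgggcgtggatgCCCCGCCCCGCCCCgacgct
The motifs, searched on both strands, were CCCNNGGG (the EBF core), TAATTA (LIM homeodomain), CANNTG (E-box) and GGGGCGGGG (GC box). Of 32851 RefSeq promoters, 11.8%, 4.84%, 66.2% and 10.4% held them within the same 250 bases. The first Slc17a6 stretch held 1 E-box. The second held 1 TAATTA, beginning 81 bases before the start, and 2 E-boxes. The Slc17a7 stretch held 1 E-box and 2 overlapping GC boxes. These letters describe the windows and were not tied to any binding.

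The remaining members lie on 3 chromosomes. Slc17a8 spans 89574020 to 89621253 on chromosome 10, minus strand. Slc12a2 spans 57878678 to 57946821 on chromosome 18. Chromosome 2 carries Gad2 (22622205 to 22693874), Gad1 (70553072 to 70602014), Slc32a1 (158610767 to 158615748) and Slc12a5 (164960802 to 164999731). All members are protein-coding genes. Gad1 and Slc32a1 each overlap 1 gene on the opposite strand, Gad1os and Gm14205, which had 1 and 0 UMIs over all barcodes. On the same strand, Slc17a6 overlaps Gm45072, Slc17a7 overlaps Mir7055, and Gad2 overlaps Mir3967 and Gm23636. The matrix has no gene under these same-strand names.

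The matrix held 3000 barcodes with 57180867 UMIs (molecular tags that mark single captured transcripts), from 10718 to 76690 per barcode. Median totals were 21447.5 UMIs in Reln-high, 15651 in Lhx5-positive Reln-low and 15247 in other neurons. Totals above 25000 UMIs occurred in 39.8%, 15.6% and 9.29% of the classes. After thinning to 10000 UMIs, both Xist and a Y-linked gene were detected in 16.4%, 17.3% and 11.4%, which is a sign of barcodes with RNA of more than 1 cell. All 3 classes carried neuronal transcripts: Tubb3, a neuronal tubulin, was at 4536, 4958 and 5245 CPM (UMIs per 1000000 UMIs of the class). Clustering by K-means, made without the 8 members, Reln and Lhx5, gave 8 clusters named by their leading gene or, with enough markers, by type. The CR-like cluster (397 barcodes, 6 of 6 CR markers) held 391 of the Reln-high barcodes. A cluster of 176 barcodes led by Snhg11 stayed unnamed, with 5 of 12 interneuron and 5 of 8 diencephalic markers raised. It held 34 Reln-high barcodes, 65 Lhx5-positive Reln-low barcodes and 77 other neurons, so results that rest on it are given with and without it.

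Slc17a6 had its highest class level in Reln-high barcodes. It was at 61.3 CPM (57.0 to 65.9) there, 29.8 CPM (24.9 to 35.3) in Lhx5-positive Reln-low barcodes and 8.56 CPM (7.66 to 9.55) in other neurons. The 3 intervals did not overlap. Reln-high barcodes stood 7.16-fold above other neurons (log2 2.84, 2.65 to 3.03), and Lhx5-positive Reln-low barcodes 3.48-fold (log2 1.80, 1.5 to 2.09). With every barcode thinned to 10000 UMIs, a Slc17a6 UMI was detected in 49.1%, 19.0% and 6.75% of the classes. At full depth these shares were 72.6%, 28.3% and 10.4%. Radial glia-like barcodes (17, median 14555 UMIs), progenitors with little use for a vesicular transporter, had a thinned share of 5.88% (0.149 to 28.7%). The shares in other neurons and in Lhx5-positive Reln-low barcodes both lay inside that interval and were not separable from background with so few radial glia-like barcodes.

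Slc17a7 ran the other way. Its level was 12.5 CPM (10.6 to 14.7) in Reln-high, 39.3 CPM (33.6 to 45.6) in Lhx5-positive Reln-low and 42.5 CPM (40.5 to 44.7) in other neurons. The last 2 classes overlapped and the Reln-high class lay apart, 3.39-fold below other neurons (log2 -1.76, -2.01 to -1.52). Thinned shares were 5.74%, 25.7% and 31.4%, against 17.6% (3.80 to 43.4%) in radial glia-like barcodes, an interval that holds the shares of all 3 classes, so that no class was separable from that background by its share. By level, radial glia-like barcodes were at 14.1 CPM (3.85 to 36.1, from 4 UMIs). That interval lay below the one of other neurons and overlapped those of Reln-high and Lhx5-positive Reln-low barcodes. Within the CR-like cluster, Slc17a7 was at 16.3 CPM (13.1 to 20) in the 146 barcodes above 25000 UMIs and at 3.66 CPM (2.09 to 5.94) in the other 251. Slc17a6 was at 62.2 CPM and 73.3 CPM in the same sets. Without barcodes above 25000 UMIs, the Slc17a7 difference of Reln-high from other neurons was log2 -2.81, and without barcodes holding Xist and Y-linked UMIs it was log2 -2.14. Depth and such barcodes thus moved with the Slc17a7 level of the Reln-high class, and their part in that level was not tested.

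Slc17a8 (VGLUT3), found in small sets of neurons in the adult brain, was close to the detection limit. It had 3 UMIs in Reln-high, 1 in Lhx5-positive Reln-low and 13 in other neurons, or 0.247, 0.226 and 0.344 CPM. No difference between classes was detectable at this depth (Reln-high over other neurons, log2 -0.47, -2.93 to 1.39).

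**Figure D1:**
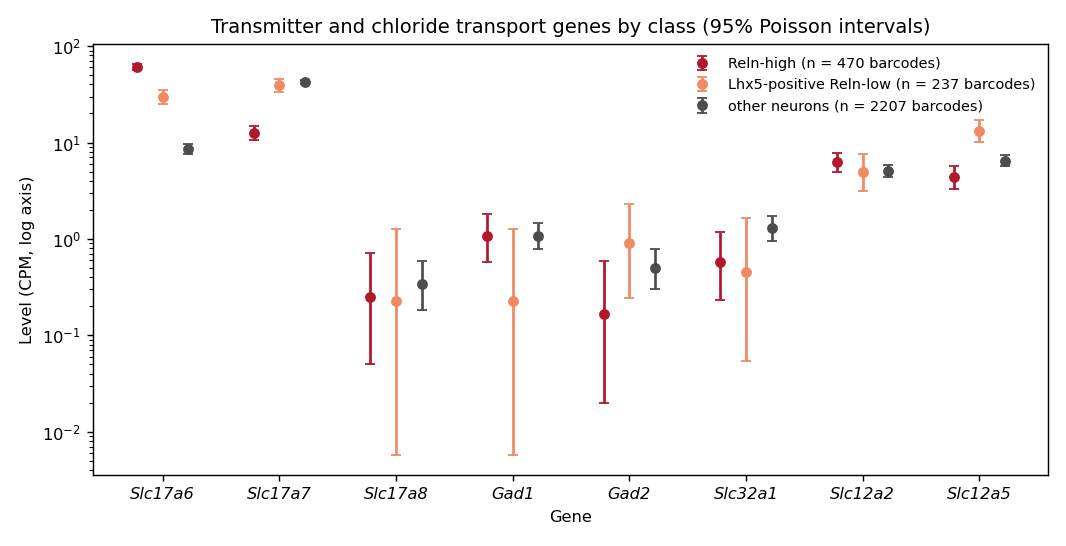
Level of each member in CPM on a log axis, with points for the 3 classes and bars for 95% Poisson intervals. Slc17a6 ran from 61.3 down to 8.56 CPM and Slc17a7 from 12.5 up to 42.5 CPM over the classes, while Slc17a8 and the GABA genes stayed below 2 CPM throughout.

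The summed UMIs of Slc17a6 and Slc17a7 gave the balance of these transporters. UMIs count transcripts whatever their length, but capture may differ between genes, so the balance was compared between classes only. Slc17a6 gave 83.0% (80.4 to 85.4%) of both genes' UMIs in Reln-high, 43.1% (37.5 to 48.9%) in Lhx5-positive Reln-low and 16.8% (15.1 to 18.5%) in other neurons. By cluster the share was 86.3% in CR-like, 76.6% in Snhg11-led, 47.9% in Rnd2-led, 22.8% in Neurod1-led and 13.3% in Fezf2-led, with 6.40% in Caln1-led and 6.08% in Akap7-led barcodes. Both genes were seldom seen in 1 thinned barcode: 13 of 470 Reln-high barcodes, 6 of 237 Lhx5-positive Reln-low barcodes and 37 of 2207 other neurons. Independent detection within a class would give 13.3, 11.6 and 46.9.

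The levels were also taken in finer steps of Reln and Lhx5. In the 3 lowest Reln bins, below 0.5, from 0.5 to 1 and from 1 to 2 UMIs per 10000, Slc17a6 was at 10.5, 9.32 and 11.4 CPM, and Slc17a7 at 38.6, 43.5 and 46.4 CPM. These bins held most barcodes, and Slc17a6 showed no upward step there. Slc17a6 was then at 18.4 CPM from 2 to 5, 41.0 CPM from 5 to 10, 52.0 CPM from 10 to 20 and 75.7 CPM from 20 to 40. Slc17a7 was at 43.9, 22.6, 14.9 and 7.40 CPM in those 4 bins. Just outside the class threshold, from 4 to 5 Reln UMIs per 10000, Slc17a6 was at 31.5 CPM (9 UMIs), and just inside, from 5 to 6, at 33.3 CPM (5 UMIs). Among Reln-low barcodes with 0, 1, 2 and at least 3 Lhx5 UMIs, Slc17a6 was at 8.56, 19.7, 37.6 and 61.6 CPM, and Slc17a7 at 42.5, 48.4, 25.1 and 13.4 CPM. Of the 40 barcodes with at least 3 Lhx5 UMIs, 29 belonged to the Snhg11-led cluster, and 176 of the 237 Lhx5-positive Reln-low barcodes had a single Lhx5 UMI.

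**Figure D2:**
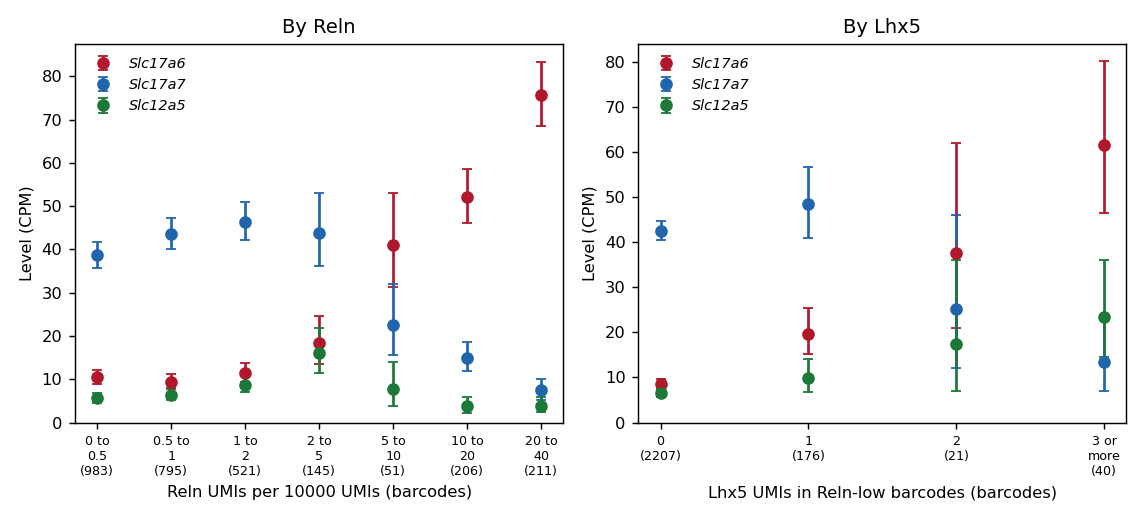
Levels of Slc17a6, Slc17a7 and Slc12a5 in CPM by Reln UMIs per 10000 (left) and, in Reln-low barcodes, by Lhx5 UMIs (right), with the number of barcodes in brackets and 95% Poisson intervals. The bin of 40 or more Reln UMIs per 10000, with 1 barcode, is not drawn. Slc17a6 reached 75.7 CPM in the highest Reln bin and 61.6 CPM at 3 or more Lhx5 UMIs, where Slc17a7 was at 7.40 and 13.4 CPM.

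The Lhx5-positive Reln-low level of Slc17a6 rested on the Snhg11-led cluster. Inside that cluster Slc17a6 was at 78.4 CPM in Reln-high, 82.7 CPM in Lhx5-positive Reln-low and 76.1 CPM in other neurons, with overlapping intervals. Outside it the levels were 60.4 CPM (56.0 to 65.0), 10.2 CPM (7.02 to 14.3) and 5.73 CPM (4.98 to 6.56). The ratio of Lhx5-positive Reln-low barcodes to other neurons was then log2 0.83, against 1.80 with the cluster, and that of Reln-high barcodes to other neurons was log2 3.40. Diencephalic markers summed to 505 CPM in the Snhg11-led cluster, with 7 of 8 detected and Gbx2 at 0, and to between 4.75 and 67.5 CPM in the other clusters. Interneuron markers, all 12 detected, summed to 148 CPM there, against 4.57 to 11.9 CPM in the other clusters apart from the radial glia-like one, which was at 319 CPM. The part of such cells in the Slc17a6 level was not tested.

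Across clusters, Slc17a6 was highest in Snhg11-led (78.9 CPM, 69.7 to 89.0) and CR-like barcodes (67.1 CPM, 62.1 to 72.4), whose intervals overlapped. It was at 14.6 CPM in Rnd2-led and 8.82 CPM in Neurod1-led barcodes, followed by Caln1-led (6.22 CPM), Fezf2-led (4.37 CPM) and Akap7-led barcodes (3.70 CPM), where neighbours overlapped. Slc17a7 was highest in Caln1-led (90.9 CPM, 3 of 7 subplate markers raised) and Akap7-led barcodes (57.2 CPM, 3 of 8 deep-layer markers raised). Neurod1-led (29.8 CPM) and deep-layer-like Fezf2-led barcodes (28.6 CPM) did not differ beyond counting error. Snhg11-led barcodes followed at 24.1 CPM, upper-layer-like Rnd2-led ones at 15.9 CPM and CR-like ones at 10.7 CPM. In the Snhg11-led cluster 1 barcode held 24 of the 81 Slc17a7 UMIs, so its place in that order leans on that barcode. At full depth Slc17a7 was detected in 15.9% of Snhg11-led, 21.3% of Rnd2-led and 16.9% of CR-like barcodes.

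**Figure D3:**
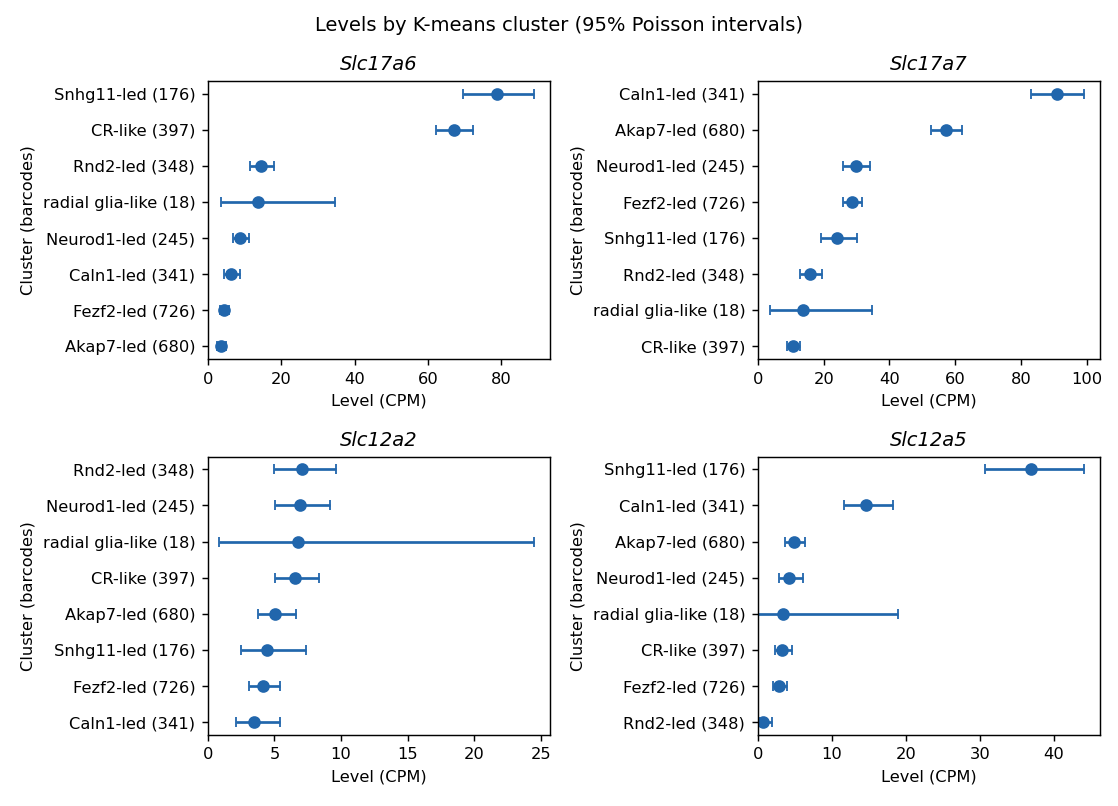
Levels of Slc17a6, Slc17a7, Slc12a2 and Slc12a5 in CPM in each of the 8 clusters, ordered from high to low, with 95% Poisson intervals and the number of barcodes in brackets. Slc17a6 stands out in the Snhg11-led (78.9 CPM) and CR-like (67.1 CPM) clusters, Slc17a7 in the Caln1-led cluster (90.9 CPM) and Slc12a5 in the Snhg11-led cluster (36.9 CPM), while Slc12a2 lies between 3.47 and 7.03 CPM.

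Within the CR-like cluster, Slc17a6 was at 76.1 CPM (68.7 to 84.1) in barcodes with Reln above the median and at 57.8 CPM (51.2 to 65.0) in the others. It was at 77.2 CPM (69.0 to 86.2) with summed Rspo3 and Cdkn1a above their median and at 60.0 CPM (53.9 to 66.7) below. The last 2 sets differed in depth, with medians of 18157 and 25828 UMIs. Slc17a7 was at 7.91 and 13.6 CPM in the Reln split and at 8.77 and 12.1 CPM in the other.

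Among 8111 genes with at least 500 UMIs, those whose log2(CPM + 10) over the 8 clusters was most like Slc17a6 were Mab21l1 (r = 0.971), Ebf1 (r = 0.970) and Uqcrc1 (r = 0.966). Mab21l1 was at 94.4 CPM in Snhg11-led, 70.7 CPM in CR-like and 2.73 CPM in Akap7-led barcodes. Uqcrc1 differed little in size, from 346 CPM in Snhg11-led to 277 CPM in Akap7-led barcodes. Most like Slc17a7 were Adgrb3 (r = 0.979), Lgi1 (r = 0.965) and Fam110b (r = 0.963). Adgrb3 was at 188 CPM in Caln1-led and 47.3 CPM in CR-like barcodes. These correlations describe 8 points that come from 1 library and differ in depth.

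The GABA genes were rare in every class. Gad1 had 13, 1 and 41 UMIs in Reln-high, Lhx5-positive Reln-low and other neurons (1.07, 0.226 and 1.08 CPM). Gad2 had 2, 4 and 19 UMIs (0.165, 0.903 and 0.502 CPM), and Slc32a1 had 7, 2 and 49 UMIs (0.577, 0.451 and 1.29 CPM). Of the Reln-high over other neurons ratios, Gad1 was at log2 -0.02 (-1.04 to 0.91) and Gad2 at -1.61 (-4.75 to 0.44). Slc32a1 was at log2 -1.17 (-2.55 to -0.02), but without the Snhg11-led cluster it was at 0.15, so that its direction was set by that cluster.

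Few barcodes held most of these UMIs. The 3 genes summed to 139 UMIs in 67 barcodes, and 10 barcodes with at least 3 of them held 76 UMIs (54.7%). Of those 10 barcodes, 7 were Snhg11-led and 9 had at least 2 of the 12 interneuron markers. The 44 barcodes with at least 2 interneuron markers, 1.5% of those kept, held 53.2% (44.6 to 61.7%) of the UMIs. There the 3 genes summed to 70.2 CPM (55.1 to 88.1), against 1.02 CPM (0.755 to 1.36) in the 2562 barcodes with no such marker. A GABA gene UMI was found in 27.3% and 1.76% of these sets, at medians of 17808.5 and 15560.5 UMIs. When the Snhg11-led cluster was left out, the share in barcodes with interneuron markers was 30.4%.

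Individual barcodes made the pattern concrete. The barcode with most GABA gene UMIs had 7 Gad1, 1 Gad2 and 6 Slc32a1 UMIs, with 3 of the 12 interneuron markers detected and no Slc17a6 or Slc17a7. Another had 9 Slc32a1 UMIs, 10 of the 12 interneuron markers and 443 UMIs of Sst, the somatostatin gene. A single Reln-high barcode was among the 10, in the CR-like cluster, with 4 Gad1, 1 Gad2, 44 Reln and 8 Lhx5 UMIs in a total of 35537. Slc17a6 was detected in 2 and Slc17a7 in 1 of the 10 barcodes. Those barcodes were singled out after their values were seen.

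Slc12a2, the chloride importer, was nearly level over the classes. It was at 6.26 CPM (4.94 to 7.84) in Reln-high, 4.96 CPM (3.11 to 7.52) in Lhx5-positive Reln-low and 5.10 CPM (4.41 to 5.87) in other neurons. All 3 intervals overlapped, and the difference of Reln-high from other neurons was log2 0.30 (-0.11 to 0.69). Its clusters ran from 7.03 CPM in Rnd2-led to 3.47 CPM in Caln1-led barcodes, with each neighbour overlapping the next. Thinned shares of 5.74%, 4.64% and 4.85% showed how sparse it was.

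Slc12a5, the chloride exporter, was highest in the Lhx5-positive Reln-low class. Its level was 4.37 CPM (3.27 to 5.71) in Reln-high, 13.3 CPM (10.1 to 17.2) in Lhx5-positive Reln-low and 6.50 CPM (5.71 to 7.37) in other neurons. Reln-high barcodes differed from other neurons by log2 -0.57 (-1.03 to -0.14), and Lhx5-positive Reln-low barcodes by log2 1.03 (0.60 to 1.45). Again the Snhg11-led cluster held the high values, at 36.9 CPM (30.7 to 44.0), followed by Caln1-led barcodes at 14.6 CPM (11.6 to 18.2). Akap7-led (4.87 CPM), Neurod1-led (4.26 CPM), CR-like (3.33 CPM) and Fezf2-led (2.84 CPM) barcodes overlapped their neighbours, and Rnd2-led barcodes were lowest at 0.721 CPM (4 UMIs). Without the Snhg11-led cluster the classes were at 3.57, 5.26 and 4.85 CPM, and the ratio of Lhx5-positive Reln-low barcodes to other neurons was log2 0.12. With the lower Reln threshold of 2 UMIs per 10000, Slc12a5 in Reln-high was no longer below other neurons (log2 0.08).

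The Slc12a2 to Slc12a5 UMI ratio set the importer against the exporter. There were 1.43 (0.997 to 2.08) Slc12a2 UMIs per Slc12a5 UMI in Reln-high, 0.373 (0.218 to 0.618) in Lhx5-positive Reln-low and 0.785 (0.646 to 0.951) in other neurons. The Reln-high ratio exceeded that of other neurons by log2 0.87 (0.27 to 1.48), and by log2 1.94 (1.02 to 2.89) that of Lhx5-positive Reln-low barcodes. Leaving out the Snhg11-led cluster gave 1.83, 1.0 and 1.05. Clusters ranged from 9.75 (3.52 to 37.6) in Rnd2-led, through 1.97 (1.28 to 3.09) in CR-like and 0.237 (0.136 to 0.395) in Caln1-led, to 0.121 (0.0657 to 0.207) in Snhg11-led barcodes. Neurod1-led barcodes were at 1.62 (0.999 to 2.67), Fezf2-led at 1.46 (0.943 to 2.28) and Akap7-led at 1.04 (0.692 to 1.57). The intervals of these clusters overlapped that of CR-like barcodes, so a ratio like that of Reln-high was not particular to that class. The high Rnd2-led ratio came from 39 Slc12a2 and 4 Slc12a5 UMIs. With the Reln threshold at 2 UMIs per 10000 the difference of Reln-high from other neurons was log2 0.09.

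**Figure D4:**
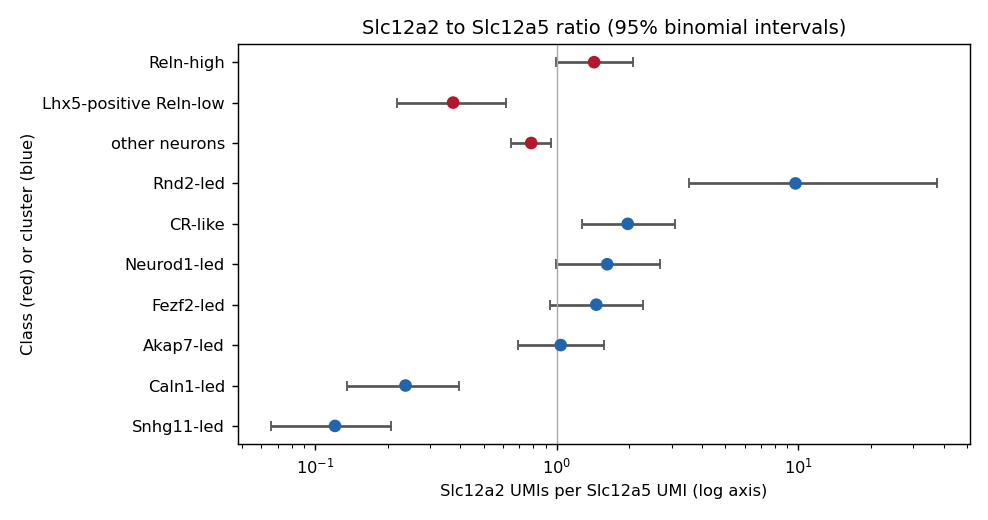
Slc12a2 UMIs per Slc12a5 UMI, on a log axis, in the 3 classes (red) and in 7 clusters (blue), with 95% binomial intervals and a line at equal UMIs. The ratio was 1.43 in Reln-high and 0.785 in other neurons, and clusters spanned 9.75 in Rnd2-led to 0.121 in Snhg11-led barcodes.

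Read over the whole list, 4 of the 8 members reached 100 UMIs over Reln-high and other neurons, the minimum used for counts. Of these, 1 was at least 2-fold higher (Slc17a6) and 1 at least 2-fold lower (Slc17a7) in Reln-high barcodes, beside 7.66% of all 11122 such genes higher, 5.30% lower and 13.0% either. For Lhx5-positive Reln-low over other neurons, 2 of 4 were higher (Slc17a6 and Slc12a5) and 0 lower, beside 1.37% and 0.346% of 10708 genes, 1.72% in all. Without the Snhg11-led cluster that count was 0, beside 0.903% of 10517 genes in either direction. For Reln-high over Lhx5-positive Reln-low, 3 members reached 100 UMIs, with 1 higher (Slc17a6, log2 1.04) and 2 lower (Slc17a7, log2 -1.65, and Slc12a5, log2 -1.61), beside 6.09% and 3.58% of 9301 genes, 9.67% in all. Without the Snhg11-led cluster 2 members were past 2-fold there, beside 11.5% of 9014 genes. Slc12a2 missed the minimum there with 98 UMIs. When at least 2 Lhx5 UMIs were required, the count of members past 2-fold there was 0. Slc17a6 and Slc17a7 were then within 2-fold, and Slc12a5 was short of the minimum. Slc17a6 was at 37.6 CPM with 2 Lhx5 UMIs and 61.6 CPM with at least 3, against 61.3 CPM in Reln-high. Slc17a7 was at 25.1 and 13.4 CPM, against 12.5 CPM in Reln-high. Slc12a5 was at 17.5 CPM (7 UMIs) with 2 Lhx5 UMIs and 23.5 CPM (21 UMIs) with at least 3, against 4.37 CPM in Reln-high. Median log2 ratios of the members that reached the minimum were -0.13, 0.49 and -1.61 in the 3 comparisons, and those of all genes 0.12, 0.02 and 0.10. The first 2 comparisons share the other neurons.

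A list of 61 further genes of transmitter supply, uptake and chloride balance gave the setting. In Reln-high over other neurons, 36 reached 100 UMIs, of which 3 were at least 2-fold higher and 3 lower, with a median of log2 0.14. Of all 11122 genes with that many UMIs, 7.66% were higher and 5.30% lower, 13.0% in all. Abat, the transaminase that breaks down GABA, was at 48.3 CPM in Reln-high and 5.21 CPM in other neurons, 9.28-fold higher (7.88 to 11). By cluster Abat was at 53.6 CPM in CR-like and 19.7 CPM in Snhg11-led barcodes. Stk39, the kinase SPAK that acts on cation-chloride cotransporters, was at 50 and 24.9 CPM (log2 1.01, 0.86 to 1.16). Slc4a3, a chloride-bicarbonate exchanger, was at 25.4 and 12.5 CPM (log2 1.03, 0.81 to 1.24). By cluster Slc4a3 was highest in Snhg11-led barcodes at 38.4 CPM, followed by CR-like at 26.6 CPM and Caln1-led at 20.1 CPM.

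Among the listed genes with at least 100 UMIs, the lowest were 2 plasma membrane glutamate transporters and a partner of Slc12a5. Slc1a3 was at 5.11 and 11 CPM (log2 -1.10) and Slc1a1 at 19.1 and 39.5 CPM (log2 -1.05). By cluster Slc1a3 was at 5.96 CPM in CR-like barcodes, above Neurod1-led (4.26 CPM) and Snhg11-led (2.68 CPM). It reached 16.4 CPM in Fezf2-led and 179.7 CPM in radial glia-like barcodes. Neto2, which binds the Slc12a5 protein, was at 60.3 and 125 CPM (log2 -1.05, -1.17 to -0.94). By cluster Neto2 was at 53.5 CPM in CR-like and 51.4 CPM in Rnd2-led barcodes. The 6 genes kept their direction and a 2-fold difference without the Snhg11-led cluster (background 13.6% of 11011 genes), with Abat at log2 3.41 and Neto2 at -1.07. The 7 glutamate supply genes that reached the minimum all stayed within 2-fold, with a median of log2 0.14.

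In Lhx5-positive Reln-low over other neurons, 2 of 36 were at least 2-fold higher, among them Slc4a10, and 0 lower. The shares of all 10708 genes were 1.37% and 0.346%. Slc4a10, a sodium-driven bicarbonate transporter, was at 8.12 and 3.86 CPM (log2 1.07), and Slc1a6, a glutamate transporter, at 13.1 and 7.19 CPM (log2 0.86). Without the Snhg11-led cluster, these were log2 0.91 (0.21 to 1.56) and 0.69 (0.12 to 1.21). Lowest among genes with at least 100 UMIs were the potassium-chloride cotransporter Slc12a4 at log2 -0.89 (-1.79 to -0.12), Slc1a3 at -0.32 (-0.83 to 0.16) and the chloride channel gene Clcn2 at -0.32 (-1.04 to 0.33). In Reln-high over Lhx5-positive Reln-low, 30 reached the minimum, with 2 higher (Abat, log2 2.79, and Stk39, log2 1.04) and 2 lower, among them Neto2 (log2 -1.04). Of all 9301 genes in that comparison, 6.09% were higher and 3.58% lower, 9.67% in all.

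**Figure D5:**
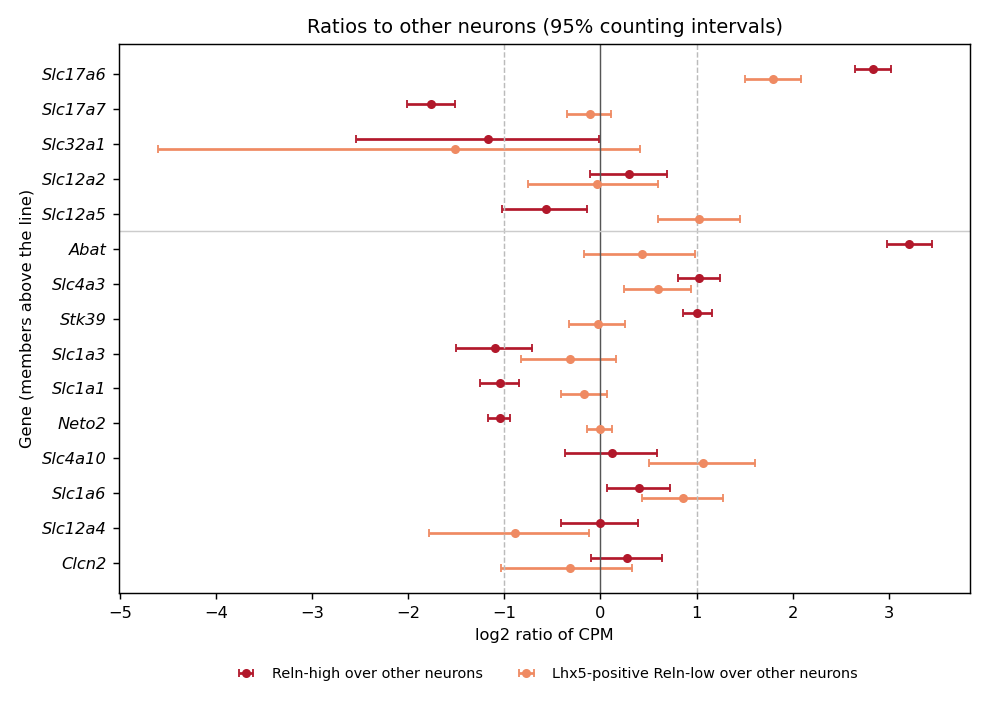
log2 ratio of CPM to other neurons for Reln-high (red) and Lhx5-positive Reln-low barcodes (orange), for 5 members above the line and 10 genes of the wider list below it, with 95% counting intervals and dashed lines at 2-fold. Abat (3.21) and Slc17a6 (2.84) had the highest Reln-high ratios of the genes drawn and Slc17a7 (-1.76) the lowest, while Slc17a6 (1.80), Slc4a10 (1.07) and Slc12a5 (1.03) were past 2-fold in Lhx5-positive Reln-low barcodes.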

How the data were processed

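The authors deposited untransformed UMI counts for each gene in each barcode, made with Cell Ranger 2.0.0. They used Seurat 2.0, on the genome build mm10, per the submitters' processing notes. A minimum of 1000 detected genes and a ceiling of 10% mitochondrial UMIs removed 0 barcodes, and the 2.3% with the highest Scrublet scores (69) were removed. Counts were log-normalised with scanpy 1.11.5 and clustered with scikit-learn 1.9.0 (2000 variable genes, 20 components, K-means with 8 clusters and 50 starts) after taking out the members, the wider gene list, Reln and Lhx5. The authors' cell annotation was not used here, and cluster names rebuilt here can differ from the study's. A cluster name needed at least 3 markers at least 2-fold raised (10 or more UMIs, without the top barcode) and 1 of them among its 10 leading genes, which was decided with the data in view.

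Summed UMIs gave CPM levels, bounded by exact Poisson intervals. For ratios a conditional binomial interval was used, for the Slc12a2 to Slc12a5 comparison a conditional odds ratio interval, and for shares Clopper-Pearson intervals, all at 95%. With 1 pooled library there was no test and no p-value, and the spread among animals is not part of any interval. Detection shares were taken after thinning to 10000 UMIs. Counts of genes past 2-fold used genes with at least 100 UMIs over both classes. Named genes were the 8 members, the 3 highest and 3 lowest of the wider list against other neurons, and the 3 genes of most similar cluster pattern for members with at least 500 UMIs. A gene that this rule names is not reported here. The members, lists and settings were chosen with earlier results of these data known. In a test on simulated data (27998 genes, 2 barcode sets), 200 of 200 changed genes had the right direction and 95.7% of intervals held the true ratio. Those counts were drawn with the same counting error that the intervals assume. The test therefore checks the calculation only and cannot show that the intervals hold for real counts, which can be uneven between barcodes. Positions are from GENCODE (GRCm38), where 27645 gene identifiers were found, and promoters from RefSeq. Alternatives varied the class thresholds, barcode filters, scaling, pooling, gene minimum and pseudocount.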

Additional observations from a re-analysis of the deposited data

How the results depend on the processing

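Of 342 member ratios recomputed under 15 alternatives, 307 stayed within their counting interval, 31 left it with the same or an uncertain sign, and 4 reversed. The reversed values were Slc12a5 in Reln-high over other neurons with Reln-high from 2 UMIs per 10000 (log2 0.08), Slc32a1 in the same comparison without the Snhg11-led cluster (0.15) and also without barcodes above 25000 UMIs or with Xist and Y-linked UMIs (1.27), and Slc12a5 in Lhx5-positive Reln-low over other neurons under that last setting (-0.08). Slc17a6 in Reln-high over other neurons ranged from 2.67 to 3.68 and Slc17a7 from -2.99 to -1.23. The count of members past 2-fold in Lhx5-positive Reln-low over other neurons was 1 with Reln-high from 10 UMIs per 10000, with the CR-like cluster in place of Reln-high and with a pseudocount of 1 CPM, and 0 under both settings without the Snhg11-led cluster. For Reln-high over Lhx5-positive Reln-low it was 0 with at least 2 Lhx5 UMIs. In that setting Slc17a6 and Slc17a7 were within 2-fold and Slc12a5 missed the minimum of 100 UMIs. Over the alternatives, Slc17a6 in that comparison ranged from log2 0.18 to 2.81 and Slc17a7 from -2.89 to -0.44. The Slc12a2 to Slc12a5 difference was log2 0.09 with Reln-high from 2 UMIs per 10000 and between 0.72 and 1.33 elsewhere. The GABA share in barcodes with interneuron markers was 30.4% without the Snhg11-led cluster and 16.3% when deep and both-sex barcodes were left out too. Both settings without that cluster were chosen after seeing the data. With genes from 20 UMIs, 2307, 793 and 1709 genes were past 2-fold in the 3 comparisons, against 1442, 184 and 899 with 100. Taking the 50 most abundant genes out of the totals moved the median of all genes by -0.06, -0.01 and -0.04. The cause of these changes was not tested. No paired analysis was possible because the matrix has no map from barcodes to samples. Depth limits Slc17a8 and the GABA genes, at 58 UMIs or fewer each.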
